A study of Mus musculus with 17 samples.

Results

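The unfolded protein response (UPR) is the program by which a cell matches the folding capacity of its endoplasmic reticulum (ER) to the load of secreted protein. Described here is the chromatin accessibility around 9 genes of that response, Xbp1, Ern1, Atf4, Atf6, Creb3l2, Hspa5, Ddit3, Edem1 and Ell2, in 3 stages of the mouse B lineage, which are naive cells (nB), germinal center cells (GCB) and the plasma cells of bone marrow (BMPC). Accessibility was measured by ATAC-seq, in which a transposase cuts open chromatin and inserts sequencing adapters, so that reads pile up where DNA is exposed. The members were all accessible regions whose nearest transcript or nearest transcription start carries one of the 9 symbols in the deposited table, which gave 76 of 66177 regions. Ern1, Atf6 and Creb3l2 had 14 regions each, Edem1 had 12, Ell2 had 11, Xbp1 had 7, Hspa5 had 3 and Ddit3 had 1. Atf4 had 0 and its start was not analysed here. By the annotation in the table, 9 of the 76 regions were promoters, 7 lay in exons, 39 in introns and 21 outside genes. The regions were from 173 to 2062 bp wide, with a median of 510.5 bp.

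All mice were on the background B6;129S4-Dnmt3atm3.1Enl Dnmt3btm5.1Enl/Mmnc and carried Dnmt3afl/fl Dnmt3bfl/fl. Dnmt3-deficient mice (KO) also carried 1 Cre allele active in the B lineage, which removed the catalytic parts of both de novo DNA methyltransferases early in B cell development, and their Dnmt3-sufficient littermates (C) carried no Cre. The nB (B220+ Fas- GL7-, lymph node) came from unimmunized male mice, with 3 C and 2 KO libraries of 1 mouse each. The GCB (B220+ Fas+ GL7+ PE+, lymph node) were collected 30 days after immunization with phycoerythrin (PE), as 2 C and 4 KO libraries, each a pool of 2 mice of one sex. The C pools were F2 (female) and M1 (male), and the KO pools were F1, F2 and F3 (female) and M1 (male). The BMPC (CD138+, bone marrow) were collected at the same time from immunized female mice, with 3 C and 2 KO libraries of 1 mouse each. Cell type, tissue, immunization and, between nB and BMPC, sex cannot be told apart in these comparisons, and the age of the mice is not given in the labels. Sex also differed in part between GCB and the other cell types, and between the genotypes in GCB. The deletion itself was not checked here, so that the genotypes rest on the labels.

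In the UPR, unfolded protein is sensed in the ER membrane by ERN1 (IRE1 alpha), by PERK and by ATF6. ERN1 cuts an intron out of Xbp1 mRNA, and the spliced product is a transcription factor of ER chaperone, secretion and ER-associated degradation genes. PERK acts through the translation of ATF4, which induces DDIT3 (CHOP), and ATF6 and its relative CREB3L2 are cut in the Golgi to free a transcription factor. Plasma cells secrete antibody at a high rate and need XBP1 to do so. HSPA5 (BiP) is the main ER chaperone, EDEM1 hands misfolded glycoproteins to degradation, and ELL2 is a transcription elongation factor that favors the secreted form of immunoglobulin heavy chain mRNA.

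Values are the reads of a region scaled to 1000000 reads over all regions of its library (RPPM). Each region is named by the distance of its center from the annotated start of its gene in the direction of transcription, so that -19.8 kb lies upstream and +6.1 kb downstream. A log2 fold change is on the scale of log2(RPPM + 1), which understates the change of low values, and is given with its standard error (SE). Changes are called where the limma adjusted p was no higher than 0.01 and values moved 2-fold or more. The nB libraries held 4104875 to 6079018 reads within regions, GCB libraries 907959 to 2280954 and BMPC libraries 5357687 to 8232313, so that 3 reads, taken as the floor, corresponded to between 0.364 and 3.30 RPPM. GCB values near the floor are therefore the least certain. Of the cell type markers, the summed accessibility of 7 B cell promoters was 261 to 280 RPPM in C nB, 207 to 209 RPPM in C GCB and 63.2 to 66.7 RPPM in C BMPC. Of 63 regions of plasma cell genes, 26 were higher and 10 lower in C BMPC than in nB (41.3% and 15.9%, against 18% and 20.1% of all regions), although the summed accessibility of their 3 promoters was 105 to 116 RPPM in nB and 92.9 to 102 RPPM in BMPC. Of 40 regions of germinal center genes, 19 were higher and 3 lower in C GCB than in nB (47.5% and 7.5%, against 14.2% and 8.47% of all regions). The T cell list was represented by 1 promoter of 6 genes (10.5 to 11.2 RPPM in C nB, 6.16 to 7.49 in C GCB, 2.18 to 3.47 in C BMPC), the myeloid list by 2 promoters of 6 genes (7.91 to 9.86, 3.28 to 5.28 and 7.79 to 9.36 RPPM) and the erythroid list by 1 promoter of 4 genes (5.12 to 7.63, 8.90 to 9.68 and 4.05 to 6.50 RPPM). The part of other cells in the differences between cell types was not tested. In sorted bulk samples, fewer cells with an open region and less accessibility per cell cannot be told apart.

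The sequences that carry the main changes are shown here. They are the central 200 bases of the intronic or intergenic region that gained most accessibility from C nB to C BMPC at each of 6 genes, and the 200 bases of the Xbp1 -19.8 kb region with the most E-box matches. The central 200 bases of the Edem1 region that lost most accessibility are shown for contrast. All are from the plus strand of mm9 (NCBIM37). Capitals mark the E2A-type E-boxes CAGCTG and CACCTG, the PU.1-type core GGAAGT and the IRF-type core GAAAC, on either strand (CAGGTG for an E-box, for instance, on the other strand).
Xbp1 +6.1 kb, chr11:5426640-5426839: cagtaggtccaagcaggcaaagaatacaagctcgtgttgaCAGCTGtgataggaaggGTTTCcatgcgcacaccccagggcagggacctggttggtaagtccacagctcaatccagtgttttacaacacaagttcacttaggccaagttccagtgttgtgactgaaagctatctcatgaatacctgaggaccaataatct
Xbp1 -19.8 kb, chr11:5400381-5400580: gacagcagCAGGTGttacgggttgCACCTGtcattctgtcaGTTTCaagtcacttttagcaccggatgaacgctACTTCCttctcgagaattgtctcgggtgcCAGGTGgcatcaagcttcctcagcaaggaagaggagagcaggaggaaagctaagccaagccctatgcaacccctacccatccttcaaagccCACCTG
Ern1 +57.3 kb, chr11:106291767-106291966: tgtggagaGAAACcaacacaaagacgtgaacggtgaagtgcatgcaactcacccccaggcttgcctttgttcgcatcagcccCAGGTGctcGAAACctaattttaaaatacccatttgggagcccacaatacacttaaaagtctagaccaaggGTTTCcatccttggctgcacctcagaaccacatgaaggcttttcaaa
Atf6 +31.2 kb, chr1:172766585-172766784: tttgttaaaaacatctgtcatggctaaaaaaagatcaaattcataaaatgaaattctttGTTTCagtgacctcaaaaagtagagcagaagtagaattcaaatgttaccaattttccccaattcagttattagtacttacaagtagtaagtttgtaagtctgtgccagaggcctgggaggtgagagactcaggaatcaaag
Creb3l2 -23.7 kb, chr6:37415792-37415991: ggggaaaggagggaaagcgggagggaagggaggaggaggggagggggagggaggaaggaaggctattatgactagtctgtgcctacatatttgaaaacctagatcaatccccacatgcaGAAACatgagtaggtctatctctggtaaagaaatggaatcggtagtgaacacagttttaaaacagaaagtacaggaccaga
Edem1 +11 kb, chr6:108789561-108789760: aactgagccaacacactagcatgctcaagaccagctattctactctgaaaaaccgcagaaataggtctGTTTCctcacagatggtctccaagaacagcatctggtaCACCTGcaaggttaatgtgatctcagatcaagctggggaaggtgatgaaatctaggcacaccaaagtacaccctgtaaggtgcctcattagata
Ell2 +26.9 kb, chr13:75871765-75871964: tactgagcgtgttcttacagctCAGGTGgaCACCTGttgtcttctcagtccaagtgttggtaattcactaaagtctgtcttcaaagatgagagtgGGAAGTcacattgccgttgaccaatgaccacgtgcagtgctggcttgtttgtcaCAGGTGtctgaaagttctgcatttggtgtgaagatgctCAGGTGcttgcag
Edem1 +74.8 kb, chr6:108853351-108853550: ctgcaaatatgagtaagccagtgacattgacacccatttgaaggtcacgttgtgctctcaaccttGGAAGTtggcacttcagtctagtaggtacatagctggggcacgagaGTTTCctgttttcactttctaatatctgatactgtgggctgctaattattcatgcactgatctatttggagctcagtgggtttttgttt
The Ell2 window held 4 CACCTG E-boxes, and the Xbp1 -19.8 kb window, chosen for its E-box matches, also held 4. The Xbp1 +6.1 kb, Ern1 and Edem1 +11 kb windows each held an E-box. The Atf6 and Creb3l2 windows, also from regions that gained accessibility, held an IRF-type core and no E-box of either kind. The Edem1 +74.8 kb window held a PU.1-type core, an IRF-type core and no E-box of either kind.

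The same motifs were counted in the central 300 bases of every region on a named chromosome, as a description with no test. CACCTG was present in 16 of the 33 member regions that were higher in BMPC than in nB of C mice (48.5%) and in 0 of the 10 that were lower, against 26.8% of all 65893 windows, 38.4% of all those higher in BMPC and 20.3% of all those lower. CAGCTG was present in 11 of the 33 (33.3%) and 0 of the 10, against 20.6% of all windows, 27.5% of those higher in BMPC and 17.5% of those lower. GGAAGT was present in 11 of the 33 and in 8 of the 10, against 30.3% of all windows, 21.2% of those higher in BMPC and 47.8% of those lower. GAAAC was present in 23 of the 33 (69.7%) and 6 of the 10 (60%), against 55.4% of all windows, 66.3% of those higher in BMPC and 59.0% of those lower, so that the members were close to other regions of the same direction. The octamer ATGCAAAT was present in 2 of the 33 (6.06%) and 0 of the 10, against 3.96% of all windows and 6.80% of those higher in BMPC, and the ETS-IRF composite GGAANNGAAA, which can overlap the GAAAC core, in 4 of the 33 (12.1%) and 0 of the 10, against 5.70% of all windows and 5.5% of those higher in BMPC. The UPR element TGACGTGG was present in 0 of the 76 member windows and in 0.487% of all windows. Over its whole width, the Xbp1 -19.8 kb region held 11 E-boxes of the 2 kinds, and 0.200% of all regions held as many in a window of 1786 bases around their center, where the median was 2.

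The ER stress element (ERSE, CCAAT and CCACG separated by 9 bases), to which ATF6 and XBP1 are known to bind, was found at 1 place in the Xbp1 promoter region, 247 bases after the first annotated start and 61 bases before the next.
Xbp1 ERSE, chr11:5420909-5420927, plus strand, with both half-sites in capitals: CCAATcgcggacggCCACG
Of 14308 promoter regions searched in windows of the same 2062 bases, 30 (0.210%) held this element.

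Accessibility around the UPR regulators rose from nB to BMPC mainly outside promoters. In C mice, 33 of the 76 regions were higher and 10 were lower in BMPC than in nB, against 18% and 20.1% of all regions. The median log2 fold change was 0.63 over the member regions and 0.03 over all regions. Of the 9 promoter regions 1 was higher and 0 were lower, against 11.2% and 6.41% of all promoter regions. Of the 67 regions outside promoters 32 were higher and 10 lower, against 19.9% and 23.9% of all such regions. All 8 called regions of Ell2, all 7 of Creb3l2, all 3 of Xbp1 and both of Hspa5 were higher in BMPC. Ern1 had 6 higher and 1 lower, Atf6 4 higher and 5 lower, and Edem1 3 higher and 4 lower. BMPC had the highest C group mean at 6 of the 9 promoter regions, 28 of the 39 intronic regions, 4 of the 7 exonic regions and 12 of the 21 regions outside genes. The shares over all regions are not given for these counts, so that whether they are unusual cannot be told.

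**Figure D1:**
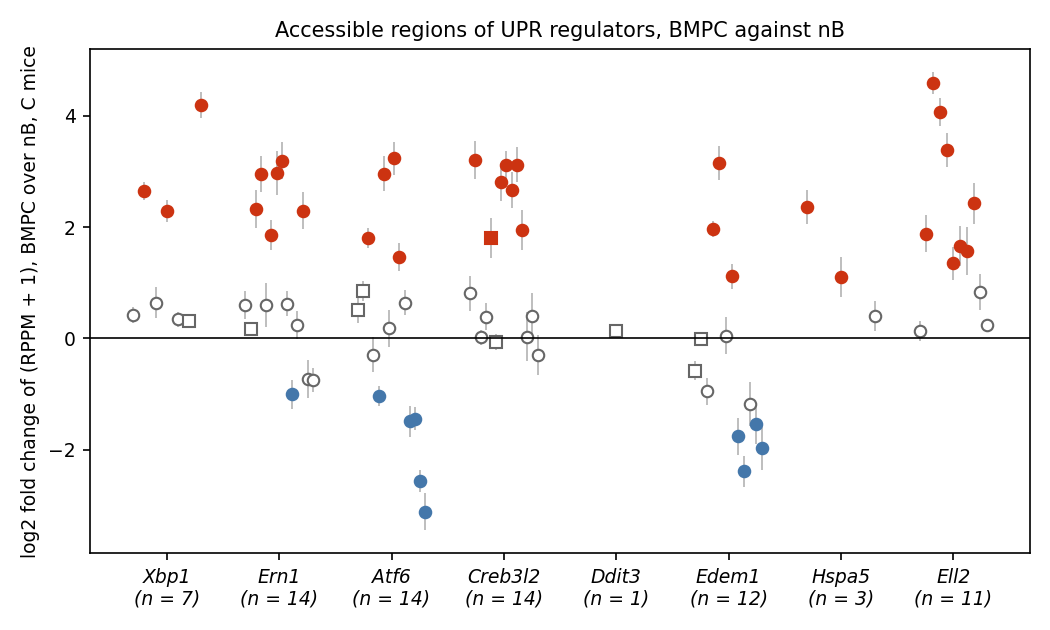
Log2 fold change of (RPPM + 1) from nB to BMPC in C mice (y axis) for each of the 76 regions, grouped by gene (x axis) and ordered from upstream to downstream. Squares are promoters, circles other regions, bars ± 1 SE, red and blue filled symbols regions called higher and lower, and open symbols regions not called. Xbp1, Creb3l2, Hspa5 and Ell2 have called regions above 0 only, and Ern1, Atf6 and Edem1 have both.

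Xbp1 had regions from -34.7 kb to +6.1 kb. The largest gain was at +6.1 kb (chr11:5426196-5427284), just beyond the end of the gene. In C mice it measured 2.44, 1.13 and 2.42 RPPM in nB, 5.72 and 7.96 RPPM in GCB, and 45.5, 52.9 and 60.1 RPPM in BMPC. The 3 cell types did not overlap, and the mean in BMPC was 26.5-fold that in nB, with a log2 fold change of 4.19 (SE 0.24, limma adjusted p = 2.4e-14). In KO mice it measured 2.96 and 2.16 RPPM in nB, 4.41, 4.46, 3.95 and 6.99 RPPM in GCB, and 52.0 and 44.6 RPPM in BMPC, and the cell types were again separate.

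The Xbp1 -19.8 kb region (chr11:5399996-5401782), upstream of the gene and outside any annotated gene, was the most accessible of the 7 in BMPC. It measured 15.1, 14.3 and 11.7 RPPM in C nB, 24.6 and 21.1 RPPM in C GCB, and 86.2, 91.2 and 94.2 RPPM in C BMPC. Most of its difference lay between GCB and BMPC, with a log2 fold change of 0.70 (SE 0.18) from nB to GCB, below the 2-fold limit, and of 1.94 (SE 0.18, limma adjusted p = 1.0e-09) from GCB to BMPC. The -11.2 kb region (chr11:5409104-5409893) followed another order. It measured 5.36, 6.03 and 3.35 RPPM in C nB, 32.1 and 26.2 RPPM in C GCB, and 24.2, 33.9 and 24.9 RPPM in C BMPC. GCB and BMPC overlapped at this region, and both lay above nB, with a log2 fold change of 2.37 (SE 0.22, limma adjusted p = 1.2e-09) from nB to GCB and of -0.08 (SE 0.22) from GCB to BMPC.

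The remaining Xbp1 regions changed less. The promoter region (chr11:5420236-5422297) measured 59.0, 59.3 and 64.0 RPPM in C nB, 40.5 and 40.8 RPPM in C GCB, and 68.5, 80.1 and 77.9 RPPM in C BMPC. It was lowest in GCB and highest in BMPC with no overlap, but all 3 changes in C were under 2-fold, with a log2 fold change of 0.31 (SE 0.11) from nB to BMPC, -0.57 (SE 0.12) from nB to GCB and 0.88 (SE 0.12) from GCB to BMPC. In KO mice its rise from GCB to BMPC was called, at a log2 fold change of 1.15 (SE 0.11, limma adjusted p = 3.05e-09). The -34.7 kb and -8.3 kb regions were also lowest in GCB and highest in BMPC by their C means, at 27.1, 21.5 and 36.8 RPPM and at 23.6, 17.1 and 30.3 RPPM in nB, GCB and BMPC. The -14.6 kb region was called from GCB to BMPC in C mice, with a log2 fold change of 1.27 (SE 0.32), from 3.36 ± 2.10 RPPM (SD, n = 2) to 8.92 ± 1.42 RPPM (SD, n = 3).

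**Figure D2:**
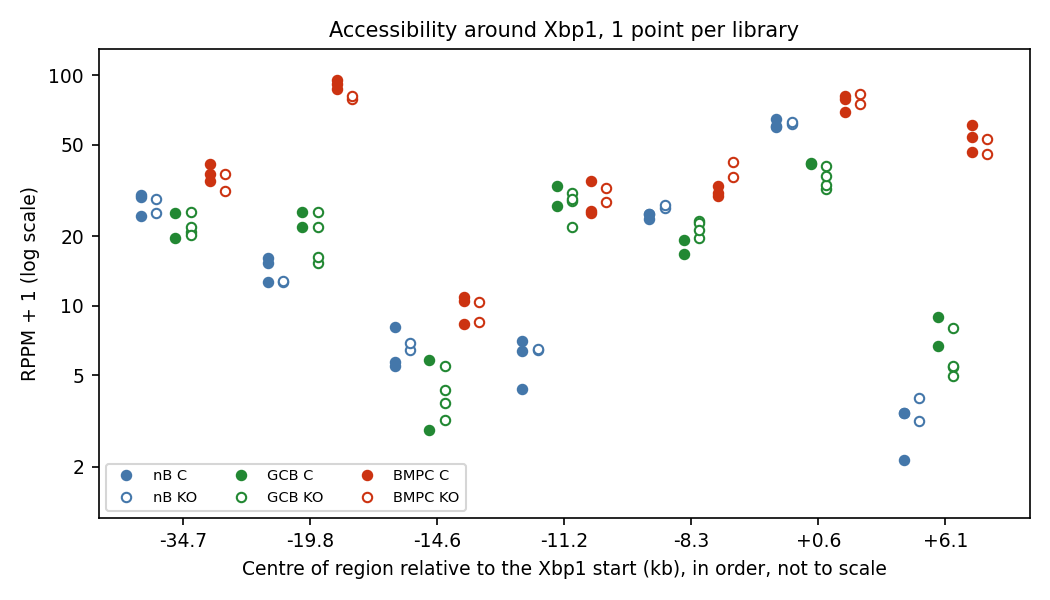
RPPM + 1 on a log scale (y axis) in each library at the 7 regions of Xbp1, ordered by the distance of their center from the start in kb (x axis, not to scale). Filled points are C and open points KO libraries, colored by cell type. BMPC stand apart from nB and GCB at -19.8 and +6.1, whereas GCB and BMPC lie together at -11.2.

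Promoter regions most like that of Xbp1 in their pattern over the 16 libraries, by Pearson's r of log2(RPPM + 1) among 14331 promoter regions, belonged to Lamb3 (r = 0.982), Snx33 (r = 0.978), Trub2 (r = 0.976) and Bpgm (r = 0.975). Each had its lowest C mean in GCB and its highest in BMPC, as Xbp1 did, with C means of 22.3, 5.61 and 45.1 RPPM in nB, GCB and BMPC for Lamb3. These r are a description over libraries that share cell types.

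Ern1, the sensor that splices Xbp1 mRNA, gained accessibility at 6 intronic regions, while its promoter was not called. The promoter region (chr11:106348652-106349716) measured 64.8, 57.8 and 55.3 RPPM in C nB, 44.0 and 44.5 RPPM in C GCB, and 62.8, 67.7 and 68.5 RPPM in C BMPC. nB and BMPC overlapped there, with a log2 fold change of 0.16 (SE 0.11) between them. The intronic +57.3 kb region (chr11:106291530-106292204) measured 1.46, 1.13 and 0.744 RPPM in C nB, 5.28 and 0.937 RPPM in C GCB, and 17.7, 17.3 and 19.6 RPPM in C BMPC. nB and GCB overlapped and BMPC lay above both, with a log2 fold change of 3.20 (SE 0.33, limma adjusted p = 2.6e-09) from nB to BMPC.

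The Ern1 +7.9 kb region (chr11:106340961-106341608), also intronic, measured 1.95, 1.13 and 2.61 RPPM in C nB, 3.08 and 4.68 RPPM in C GCB, and 19.4, 22.1 and 21.5 RPPM in C BMPC, a log2 fold change of 2.96 (SE 0.32). At the intronic +48.9 kb region (chr11:106299992-106300579) the C nB libraries held only 1 to 2 reads each, and values rose from 0.188 to 0.372 RPPM in C nB to 2.64 and 1.41 RPPM in C GCB and 11.2, 6.20 and 10.3 RPPM in C BMPC. All 6 of these gains were called from GCB to BMPC and none from nB to GCB in C mice. The 1 region that fell, +68.1 kb, went from a mean of 6.31 to 2.69 RPPM, with a log2 fold change of -1.01 (SE 0.26).

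Atf6 moved in both directions along its length. From nB to BMPC in C mice, the intronic regions at +5.8, +21.8, +31.2 and +66.9 kb rose, and the intronic regions at +14, +125.2 and +138.2 kb and the exonic regions at +158.1 and +161.5 kb fell. The +31.2 kb region (chr1:172766342-172767029) held 1 to 4 reads in the C nB libraries, at 0.487, 0.188 and 0.744 RPPM. It measured 2.20 and 0.937 RPPM in C GCB and 12.1, 13.9 and 12.3 RPPM in C BMPC, so that BMPC lay above both other cell types, with a log2 fold change of 3.24 (SE 0.29, limma adjusted p = 3.0e-10) from nB. The +21.8 kb region (chr1:172775703-172776438) measured 0.974, 0.754 and 1.68 RPPM in C nB, 2.20 and 0.937 RPPM in C GCB, and 14.8, 15.3 and 16 RPPM in C BMPC.

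At the other end of Atf6, the exonic +161.5 kb region (chr1:172636144-172636587) measured 17.5, 14.1 and 17.9 RPPM in C nB, 6.16 and 3.28 RPPM in C GCB, and 1.43, 1.28 and 0.467 RPPM in C BMPC. The 3 cell types did not overlap, and both steps down were called, with a log2 fold change of -1.65 (SE 0.37) from nB to GCB and of -1.46 (SE 0.37) from GCB to BMPC. The promoter region of Atf6 (chr1:172797448-172798269) measured 27.3, 20.9 and 22.7 RPPM in C nB, 13.2 and 10.3 RPPM in C GCB, and 42.3, 46.5 and 41.3 RPPM in C BMPC. It was lowest in GCB and highest in BMPC with no overlap, and its rise from GCB to BMPC was called at a log2 fold change of 1.81 (SE 0.20, limma adjusted p = 2.1e-08). The second promoter region, at -0.9 kb (chr1:172798518-172799075), fell from nB to GCB by 1.22 on the log2 scale (SE 0.25) and rose from GCB to BMPC by 1.72 (SE 0.25), with C means of 13.6, 5.22 and 19.6 RPPM in nB, GCB and BMPC. With a pseudocount of 5 RPPM its fall to GCB, then -0.86 on the log2 scale, was under 2-fold and no longer called. The intronic +9.0 kb region had the opposite course, with C means of 3.57, 10.6 and 2.90 RPPM and a log2 fold change of 1.35 (SE 0.36, limma adjusted p = 0.0032) from nB to GCB. That call was lost when any of 4 libraries was left out, the C nB replicates 1 and 3 and the C GCB pools F2 and M1, at limma adjusted p between 0.010 and 0.038, and with quantile normalization and pseudocounts of 0.1 and 5 RPPM.

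Creb3l2, whose product is a membrane-bound relative of ATF6, gained accessibility at 7 regions and lost it at 0. All 7 gains were called from GCB to BMPC and none from nB to GCB. The region with the largest change lay upstream of the gene at -23.7 kb (chr6:37415510-37416275) and measured 0.731, 1.51 and 2.61 RPPM in C nB, 3.96 and 0.937 RPPM in C GCB, and 23.9, 23.7 and 19.3 RPPM in C BMPC, with a log2 fold change of 3.21 (SE 0.34, limma adjusted p = 6.3e-09) from nB. The most accessible gain was the intronic +13.7 kb region (chr6:37378018-37378812), at 2.68, 6.59 and 3.54 RPPM in C nB, 6.16 and 3.75 RPPM in C GCB, and 41.0, 41.8 and 45.2 RPPM in C BMPC. In both regions nB and GCB overlapped and BMPC lay above them.

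The intronic Creb3l2 +12.0, +15.4, +19.2 and +22.6 kb regions rose as well, so that 5 of the 7 gains lay between +12.0 and +22.6 kb. The +19.2 kb region (chr6:37372755-37373112) went from 2 to 3 reads in the C nB libraries, at a mean of 0.474 RPPM, to 12.0 ± 2.00 RPPM (SD, n = 3) in C BMPC. The promoter region itself (chr6:37391589-37392894) measured 89.2, 112 and 86.9 RPPM in C nB, 78.7 and 73.1 RPPM in C GCB, and 88.2, 90.7 and 95.0 RPPM in C BMPC, with a log2 fold change of -0.06 (SE 0.15) between nB and BMPC. A small region at -1.0 kb, also annotated as promoter, was the only promoter region of the 9 called from nB to BMPC, from 1.85 ± 1.52 RPPM to 8.10 ± 0.420 RPPM (SD, n = 3 each).

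Edem1, which acts in ER-associated degradation and is a target of XBP1, had gains at +7.7, +11 and +47.4 kb, the first 2 of them inside the gene, and losses farther downstream. The exonic +7.7 kb region (chr6:108785742-108786841) measured 21.0, 22.6 and 19.2 RPPM in C nB, 33.0 and 37.5 RPPM in C GCB, and 82.3, 91.2 and 79.7 RPPM in C BMPC, and the cell types did not overlap. The intronic +11 kb region (chr6:108789460-108789863) measured 1.46, 0.754 and 0.931 RPPM in C nB, 1.32 and 2.81 RPPM in C GCB, and 18.5, 16.1 and 16.8 RPPM in C BMPC, with a log2 fold change of 3.16 (SE 0.30, limma adjusted p = 7.9e-10) from nB. The 4 losses lay between +73.7 and +102.4 kb, past the end of the gene. Edem1 is the assigned symbol there by distance only. The same holds for the +47.4 kb gain and for the regions of other member genes that lie outside genes. The largest loss, at +74.8 kb (chr6:108853238-108853665), measured 5.85, 5.84 and 8.75 RPPM in C nB, 9.68 and 14.5 RPPM in C GCB, and 0.390, 0.182 and 0.934 RPPM in C BMPC. BMPC lay below both other cell types, with a log2 fold change of -3.13 (SE 0.31, limma adjusted p = 3.5e-09) from GCB. At +102.4 kb the C means were 4.77, 4.92 and 0.364 RPPM in nB, GCB and BMPC. The promoter region (chr6:108778176-108779089) measured 69.4, 84.0 and 81.0 RPPM in C nB, 80.5 and 99.3 RPPM in C GCB, and 70.6, 75.9 and 86.9 RPPM in C BMPC, and all 3 cell types overlapped.

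The 3 regions assigned to Hspa5, which encodes the chaperone BiP, lie within the neighboring gene Rabepk, and the start of Hspa5 itself was not analysed here. The +7.5 kb region (chr2:34634826-34635062), in an exon of Rabepk, measured 1.95, 0.565 and 1.12 RPPM in C nB, 5.72 and 4.68 RPPM in C GCB, and 7.28, 9.31 and 14.6 RPPM in C BMPC. It rose from nB to GCB by 1.53 on the log2 scale (SE 0.35, limma adjusted p = 7.5e-04), and its further log2 change of 0.83 (SE 0.35) to BMPC was not called. The +12.0 kb region held 0 to 3 reads in the C nB libraries and 6 to 14 in C BMPC, and its call (limma adjusted p = 0.0098) was lost in 8 of the 16 fits that each left out 1 library, among them 2 C nB, 2 C BMPC, 2 KO nB and 2 KO BMPC libraries. Ddit3, the pro-apoptotic factor downstream of ATF4, had its promoter region (chr10:126727237-126728570) only, at 82.6, 95.3 and 81.0 RPPM in C nB, 77.4 and 83.8 RPPM in C GCB, and 96.9, 92.3 and 92.8 RPPM in C BMPC, where nB and BMPC overlapped and the log2 fold change was 0.13 (SE 0.10).

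Ell2 had 8 regions that rose and 0 that fell, and one of them, in its gene body, had the largest log2 fold change of the 76 between C nB and C BMPC. The intronic +26.9 kb region (chr13:75871304-75872427) measured 2.68, 2.26 and 1.68 RPPM in C nB, 16.3 and 19.2 RPPM in C GCB, and 76.2, 77.4 and 73.8 RPPM in C BMPC. The 3 cell types were separate and the mean in BMPC was 34.4-fold that in nB. The log2 fold change was 2.56 (SE 0.22) from nB to GCB and 2.04 (SE 0.22) from GCB to BMPC, both called. In KO mice the same region measured 1.48 and 1.38 RPPM in nB, 17.6, 10.8, 12.3 and 18.2 RPPM in GCB, and 68.9 and 66.4 RPPM in BMPC.

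The Ell2 +32.7 kb region (chr13:75877313-75877961), in the same gene body, also rose at both steps, from 2.19, 1.32 and 0.744 RPPM in C nB to 8.36 and 7.03 RPPM in C GCB and 36.5, 41.6 and 36.9 RPPM in C BMPC. The +33.9 kb region (chr13:75878682-75879038) measured 0.731, 0.565 and 0.744 RPPM in C nB, 0.440 and 0.937 RPPM in C GCB, and 16.1, 17.3 and 16 RPPM in C BMPC, and its gain fell between GCB and BMPC, with a log2 fold change of 3.39 (SE 0.34, limma adjusted p = 4.0e-09). The gains at +20.6, +39.9, +45.3, +55.7 and +75.5 kb were at low regions. They held 0 to 6 reads in each C nB library and reached C BMPC means of 2.44 to 5.51 RPPM. The +83.6 kb region, beyond the gene and chosen after its values were seen, was highest in GCB, with C means of 0.804, 9.79 and 2.18 RPPM in nB, GCB and BMPC. A region over the Ell2 start that carries no symbol in the table (chr13:75844306-75846289), and so is not among the 76, measured 94.5, 120 and 108 RPPM in C nB, 146 and 172 RPPM in C GCB, and 124, 137 and 135 RPPM in C BMPC. From nB to BMPC its log2 fold change was 0.30 (SE 0.09), against 4.59 (SE 0.19) for the +26.9 kb region of the same gene.

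**Figure D3:**
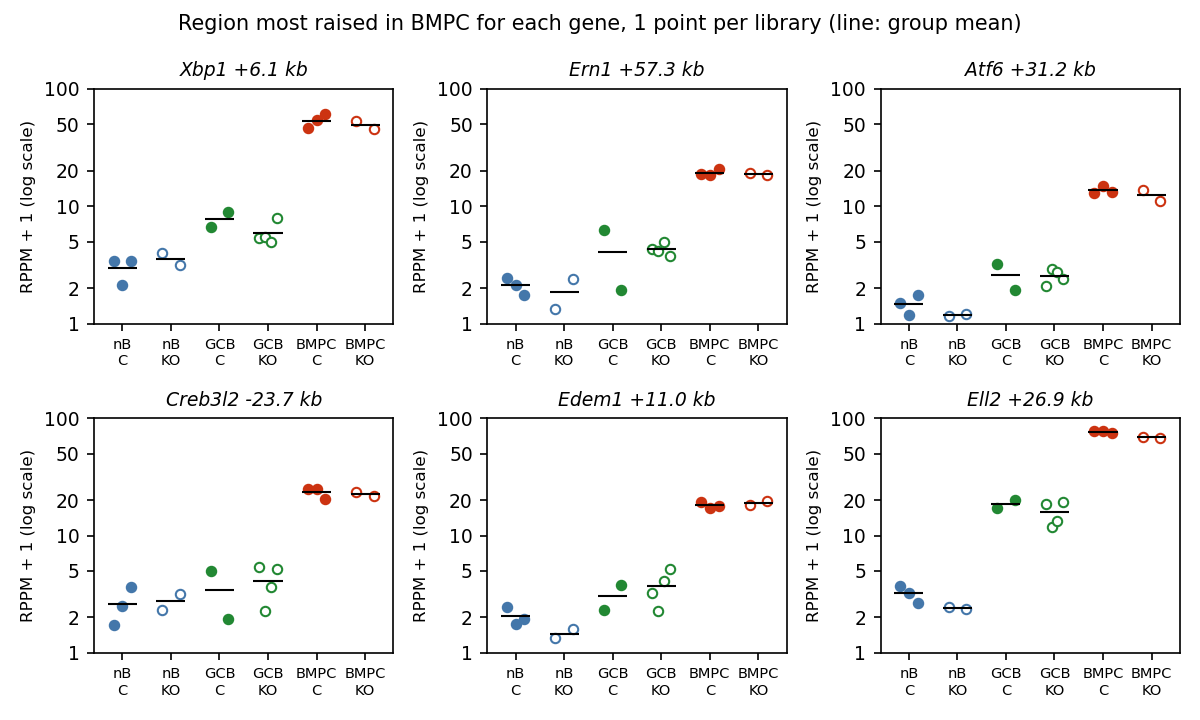
RPPM + 1 on a log scale (y axis) in each library of the 6 groups (x axis) for the intronic or intergenic region of each gene with the largest gain from nB to BMPC in C mice. Points are libraries, filled for C and open for KO, and lines are the mean of RPPM + 1 in each group. BMPC lie above every other library in all 6 panels, and the GCB libraries of Ell2 and Xbp1 lie between nB and BMPC.

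**Figure D4:**
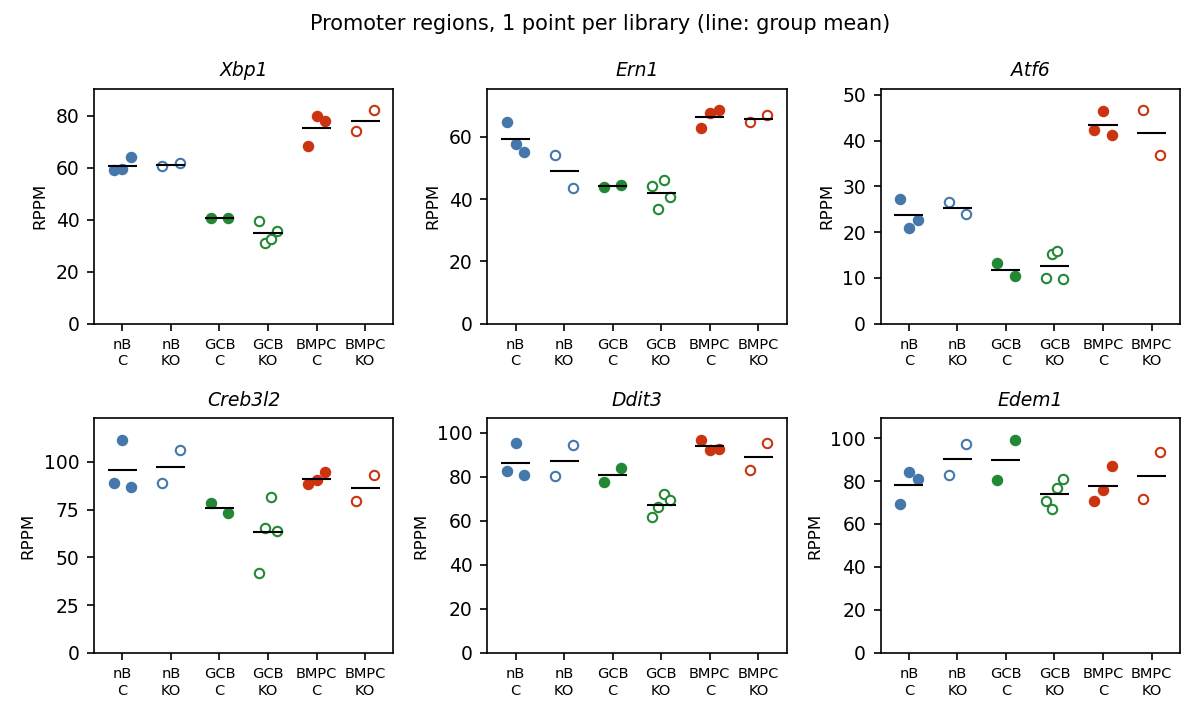
RPPM (y axis, from 0) in each library of the 6 groups (x axis) for the promoter region nearest the start of 6 genes. Points are libraries, filled for C and open for KO, and lines are group means. Every gene shown but Edem1 has its lowest C mean in GCB, and Edem1 overlaps between all 3 cell types.

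The course of the gains differed between the 2 steps. From nB to GCB in C mice, 10 of the 76 regions were higher and 3 lower, against 14.2% and 8.47% of all regions, and the median log2 fold change was 0.18 over the member regions and 0.05 over all. From GCB to BMPC, 31 were higher and 9 lower, against 11.3% and 19.1% of all regions, with medians of 0.74 and -0.06. Of the 33 regions higher in BMPC than in nB, 23 were called at the step from GCB to BMPC only (69.7%, against 33.2% of all regions higher in BMPC), 4 at the step from nB to GCB only (12.1%, against 31.9%), 3 at both and 3 at neither. The 4 that were higher in GCB than in nB and were not called again from GCB to BMPC were Xbp1 -11.2 kb, Atf6 +66.9 kb, Ell2 +20.6 kb and Hspa5 +7.5 kb. The 3 called at both steps were Xbp1 +6.1 kb, Ell2 +26.9 kb and Ell2 +32.7 kb. These comparisons share the GCB libraries. The BMPC were sorted on CD138 and not on PE binding, so that their descent from such GCB was not tested.

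The same comparisons in KO mice rest on the means of other libraries, but share their estimate of spread with those in C mice. From nB to BMPC, 33 regions were higher and 9 lower in KO mice, against 18.4% and 16.9% of all regions. Of the 33 higher in each genotype, 31 were higher in both (93.9% of each list), against 82.8% of the C list and 80.9% of the KO list over all regions. All 9 that were lower in KO were among the 10 lower in C (100% of the KO list and 90% of the C list). Over all regions these shares were 92.3% and 77.4%. In opposite directions 0 were called, against 1 of all 66177 regions. Of the 76 log2 fold changes, 72 had the same sign in both genotypes (94.7%), against 88.2% of all regions. From nB to GCB in KO mice, 16 were higher and 3 lower, against 18.4% and 7.84% of all regions, a split that became 7 and 7 with quantile normalization. From GCB to BMPC, 29 were higher and 8 lower, against 12.1% and 19.9%.

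**Figure D5:**
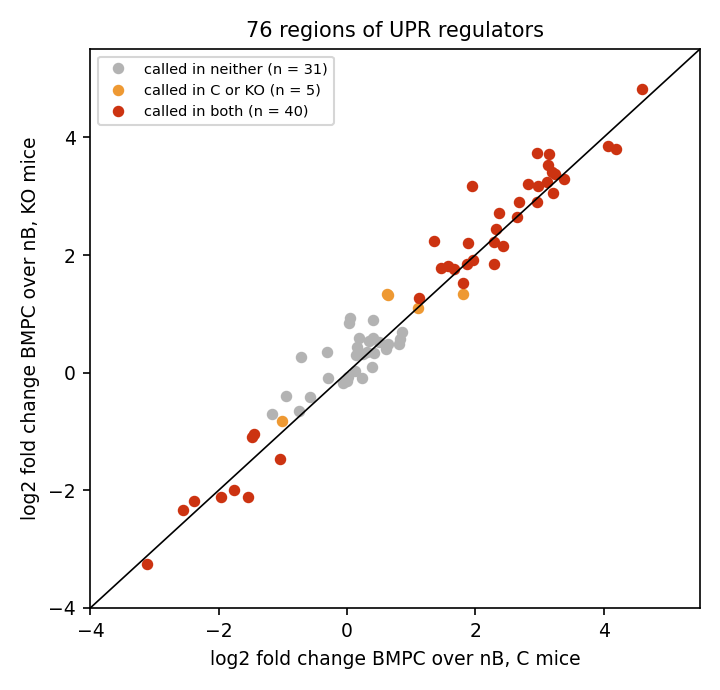
Log2 fold change of (RPPM + 1) from nB to BMPC in C mice (x axis) and in KO mice (y axis) for the 76 regions, with the line of equal change. Red points (40) were called in both genotypes, orange points (5) in C or KO alone, and grey points (31) in neither.

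No difference between Dnmt3-deficient and -sufficient cells was called at the UPR regulators. Among the 76 regions limma called 0 between KO and C in nB, 0 in GCB and 0 in BMPC, against 0%, 0.0317% and 0.104% of all regions. Of the 76, edgeR's quasi-likelihood and likelihood ratio tests and DESeq2 also called 0 in each, but their shares over all regions are not given here. The study's own edgeR comparison, not used here, reported more differences in BMPC over all regions than limma called. At an unadjusted p under 0.05 there were 0 higher and 1 lower in nB, 6 higher and 4 lower in GCB, and 3 higher and 1 lower in BMPC. Over all regions, 0.630% were higher and 1.04% lower at this limit in nB, 7.45% and 4.34% in GCB, and 6.96% and 2.59% in BMPC. The log2 differences between KO and C in BMPC ranged from -0.53 to 0.86, with a median of 0.03 over the member regions and 0.03 over all. Tests of whether the difference between genotypes itself changed between BMPC and nB, BMPC and GCB, or GCB and nB called 0, 0 and 0 of the 76, against 0%, 0% and 0% of all regions, with 1, 4 and 3 of the 76 at an unadjusted p under 0.05 (1.32%, 5.26% and 3.95%, against 5.24%, 8.32% and 6.21% of all regions).

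The smallest p in BMPC belonged to the intronic Atf6 +5.8 kb region (chr1:172791656-172792514). It measured 41.9, 48.7 and 44.5 RPPM in C BMPC and 30.5 and 33.0 RPPM in KO BMPC. The KO libraries lay below the C libraries, with a log2 difference of -0.49 (SE 0.20) and a limma adjusted p of 0.34. In GCB the lowest adjusted p was 0.096, at the Ell2 +39.9 kb region, with 0.440 and 0.468 RPPM in C and 2.20, 2.55, 3.07 and 2.10 RPPM in KO GCB, values that rest on few reads. At the regions with the largest gains, KO BMPC differed from C BMPC by a log2 value of -0.12 (SE 0.26) at Xbp1 +6.1 kb, -0.19 (SE 0.18) at Xbp1 -19.8 kb and -0.16 (SE 0.22) at Ell2 +26.9 kb. None of these was called, which does not show that the genotypes were alike, since the 2 KO BMPC libraries leave differences of that size unresolved.

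The wider UPR list, of 48 other genes, held 202 regions and 38 promoter regions. From nB to BMPC in C mice, 50 regions were higher and 25 lower (24.8% and 12.4%, against 18% and 20.1% of all regions), and the median log2 fold change was 0.17 against 0.03 over all regions. By function, the ER-associated degradation genes had 31 regions higher and 6 lower of 79 (39.2% and 7.59%), of which Sel1l, the adaptor of the degradation ligase, held 12 higher and 3 lower of 25, and Edem3, a relative of Edem1, 7 higher and 0 lower of 12. The higher shares of the other groups lay below that of all regions. Chaperone and folding genes had 6 higher and 5 lower of 39 (15.4% and 12.8%), sensors, proteases and transcription factors 8 and 8 of 53 (15.1% each), and targets and feedback genes of the PERK and ATF4 branch 5 and 6 of 31 (16.1% and 19.4%).

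Of the 38 promoter regions of these genes, 4 were higher in BMPC than in nB of C mice (10.5%) and 0 lower, a share of higher regions near the 11.2% of all promoter regions. The 2 largest gains belonged to known ATF4 targets. The promoter of Asns, which makes asparagine, went from 1.07 ± 0.200 RPPM (SD, n = 3) in C nB to 29.0 ± 3.20 RPPM (SD, n = 2) in C GCB and 31.4 ± 3.61 RPPM (SD, n = 3) in C BMPC. The promoter of Chac1, which degrades glutathione, went from 3.07 ± 0.877 RPPM (SD, n = 3) to 28.7 ± 3.84 RPPM (SD, n = 2) and 52.5 ± 4.34 RPPM (SD, n = 3). The other two promoters were those of Creb3l1, a second relative of Creb3l2, with C means of 2.17, 10.4 and 35.0 RPPM in nB, GCB and BMPC, and Creb3, with 4.46, 5.0 and 16.5 RPPM. The 2 largest decreases, neither of them called, were at Atf3, from 39.6 ± 4.05 to 27.9 ± 3.65 RPPM (SD, n = 3 each), and at Dnajb9, which encodes an ER co-chaperone, from 8.34 ± 1.78 to 6.02 ± 1.78 RPPM (SD, n = 3 each).

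Of the 202 regions, limma called 1 between KO and C in BMPC, 0 in GCB and 0 in nB, against 0.104%, 0.0317% and 0% of all regions. It lay in an intron of Sel1l (chr12:93049936-93050303) and measured 3.64, 3.28 and 4.05 RPPM in C BMPC and 13.2 and 19.4 RPPM in KO BMPC, with a log2 difference of 1.88 (SE 0.33, limma adjusted p = 0.0062).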

How the data were processed

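ATAC-seq libraries of nB, GCB and BMPC from C and KO mice were analysed. Per the study's methods, the authors trimmed reads, aligned them to mm9 with Bowtie, called peaks per sample with MACS2, merged the peaks of all samples into 1 set of regions and scaled the reads of each region to the library's total over regions. The submitters' processing notes name Bowtie 1.1.1, Picard 1.127, MACS2 2.1.0.20140616 and edgeR 3.12.1, and the study's methods name another Bowtie version. The deposited values are therefore reads scaled to 1000000 (RPM, here RPPM). All were whole multiples of 1 read (100% within 0.01 reads), so that counts could be recovered. The deposited table also holds the authors' edgeR comparisons (log2 fold changes, p-values and likelihood ratio scores), which were not used. Of 17 samples listed, 16 had a column. The remaining KO BMPC sample was left out by the authors for its share of reads in peaks.

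Log2(RPPM + 1) was fitted for all 66177 regions and 16 libraries with a mean per group in limma 3.58.1 (trend, R 4.3.3). P-values were adjusted by the Benjamini-Hochberg method over all regions. Alternatives were pseudocounts of 0.1 and 5 RPPM, a mean of at least 1 RPPM, TMM and quantile scaling, no fold minimum, edgeR 4.0.16 and DESeq2 1.42.0 on recovered reads, each library left out, and, between genotypes in GCB, a replicate block. The fits were tested on simulated data. SDs over libraries describe the spread between mice or pools. The limma p-values rest on 1 estimate of spread per region, shared by all groups and moderated over all regions. Sequences were read from NCBIM37 (mm9) with GENCODE vM1 genes.

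The regions named are the promoter region nearest each start, up to 3 other called regions per gene with the largest change from nB to BMPC, the region with the smallest p between genotypes in BMPC, and those that changed in GCB against their change in BMPC. For the wider pathway list the rule names the 2 promoters with the largest change in each direction, and for the Xbp1 promoter the 5 most similar promoters, of which 1 is not reported here, nor is 1 B cell marker. Ell2 +20.6, +39.9, +45.3, +55.7, +75.5 and +83.6 kb, the unlabelled region at the Ell2 start, the other Xbp1, Ern1, Atf6, Creb3l2 and Edem1 regions, Creb3, Creb3l1, Edem3 and Sel1l were named after their values were seen. The members and gene lists were chosen with earlier results of these data known.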

Additional observations from a re-analysis of the deposited data

Results flagged for a closer look

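Of 29 named regions, 2 had 1 library that stood apart among the 4 KO GCB pools by Dixon's test, which flags about 1 in 20 such groups by chance. At Ern1 +7.9 kb the pool F3 measured 1.32 RPPM, or 3 reads, against 5.51, 5.09 and 5.59 RPPM in the other pools. At Xbp1 +6.1 kb the pool M1 measured 6.99 RPPM against 4.41, 4.46 and 3.95 RPPM.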

How the results depend on the processing

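Of 150 counts of called member regions recomputed under alternatives where the main count was above 0, 147 stayed within 1.5 times the main count. From nB to GCB, the C count of 13 became 21 with no fold minimum and 4 with a pseudocount of 5 RPPM, and the KO count of 19 became 4 with that pseudocount, which shrinks the change of low regions. Leaving out each library in turn gave counts from 10 to 14 for nB to GCB in C, 40 to 44 for nB to BMPC in C, 32 to 41 for GCB to BMPC in C, 13 to 24 for nB to GCB in KO, 35 to 43 for nB to BMPC in KO and 31 to 42 for GCB to BMPC in KO. Each comparison between genotypes, and each test of whether the genotype difference changed with cell type, gave 0 throughout. With quantile normalization the split from nB to GCB in KO mice was 7 higher and 7 lower, against 16 and 3, and the median of all regions moved by -0.32 in that comparison, by -0.19 from nB to GCB in C, by 0.25 from GCB to BMPC in C and in KO, and by -0.12 for the change of the KO difference between nB and BMPC. Of 767 log2 fold changes of named regions under alternatives, 749 kept their call or their lack of one, and 18 lost the call. With a call in either fit, 0 changed sign. Changes of sign among values called in neither fit were not counted. The lost calls were at Atf6 +9.0 kb, Atf6 -0.9 kb, Hspa5 +12.0 kb and Edem1 +102.4 kb. The replicate block over GCB pools F2 and M1 left 0 called. Deviations of equally numbered pools, which also share sex, correlated at 0.036 and 0.064. With so few C pools, this cannot show whether the pools were otherwise paired. GCB depth limits what low regions can show.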
